A study of Oryza sativa with 4 samples.

Results

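Peroxiredoxins, glutaredoxins and thioredoxins are small proteins that work through reactive cysteines, and their rice genes were followed in leaves exposed to 30% CO2. Members were taken by name: a gene belonged if its symbol or a synonym, without the prefix Os, began with PRXII, GRXS, GRXC or TRX. The gene table holds 47 such genes. Of these, 37 have a probe set that the array annotation gives to a single gene, out of 17905 genes measured in all. The 37 genes comprise 4 type II peroxiredoxins, 11 glutaredoxins named S, 7 glutaredoxins named C and 15 genes with a thioredoxin name. The 10 genes not analysed here are 6 glutaredoxins named C (GRXC2, GRXC4, GRXC5, GRXC11, GRXC13 and GRXC14) and 4 thioredoxins (Trxh2-1, Trxm3, Trxo1 and Trxx). One of the 15 thioredoxin names is misleading. The gene TRX1 (LOC4346464) also carries the names SDG723 and SET33 in its record, which belong to SET-domain proteins that methylate histones, so its Trx stands for trithorax. It is kept because the rule takes it, it is described apart, and counts are also given without it.

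The samples were leaves of Oryza sativa cultivar Senia at the V2 (2-leaf) stage. A regime of 16 h light and 8 h dark is recorded for every sample. For the exposure, all plants spent 6 h in the dark at 27 ± 2 °C. The treated group was enclosed in sealed bags brought to 30% CO2, and the control group stayed in normal atmosphere, labelled 0.04% CO2. Each group had 2 biological replicates, and each replicate pooled the leaves of 10 plants. Whether control plants were also bagged, and what the oxygen level in the bags was, is not given in the sources used here, so CO2 and enclosure cannot be told apart. Expression was read on Affymetrix rice arrays as log2 signal per probe set, where a difference of 1 is a 2-fold change. Signals of different probe sets depend on the probes and are not compared as levels. The arrays had medians between 3.85 and 3.92. The first principal component held 81.4% of the variance and parted the groups, with CO2 replicate 1 (at -98.69) further from the controls (78.01 and 83.33) than CO2 replicate 2 (-62.65). Markers of leaf mesophyll were bright, with rbcS at 13.63 to 13.65 and rca at 13.00 to 13.08 in all samples, although RBCS1 lay at 2.74 to 3.30, below the array medians. Of 10 mesophyll markers 4 fell under CO2 and none rose, against 18.8% and 12.4% of all genes. Of the 4, GLO1 lay at the threshold (limma adjusted p = 0.04996). The markers were taken by name and include every measured gene named FNR, for ferredoxin-NADP reductase. Not all of these need be leaf forms. FNR LOC4342399, among those that fell, is counted again with the reductases below. The one root marker measured, NRT2.3, lay at 3.90 to 4.25. Of 6 markers of dividing cells, none passed the test. In bulk leaf RNA, fewer cells of a type and less RNA per cell cannot be told apart.

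Thioredoxins carry a pair of cysteines with which they reduce disulfide bonds in other proteins, and so switch enzymes on or off. In chloroplasts, the f, m, x and y types draw electrons from the photosynthetic chain through ferredoxin, while the h types of the cytosol draw them from NADPH through a thioredoxin reductase. Glutaredoxins do related work with glutathione as the reductant, and some bind iron-sulfur clusters; the letter C or S in a plant glutaredoxin name gives the last residue of the active site, cysteine or serine. Peroxiredoxins break down hydrogen peroxide and organic peroxides with a cysteine that thioredoxin or glutaredoxin then regenerates. Together they connect the redox state of the leaf to its metabolism in light and dark.

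Under 30% CO2, 12 of the 37 genes fell, 2 rose and 23 did not pass the test (limma with Benjamini-Hochberg adjustment over all genes, threshold 0.05). The falls lay in each of the families: the peroxiredoxins PRXIIE-1 and PRXIIE-2, the glutaredoxins GRXS12, GRXS4, GRXC1 and GRXC6, and the thioredoxins Trxy, Trxh4-1, Trx25, Trxm1 and Trx26, besides TRX1. The rises were those of GRXS9, which reached 4.73-fold, and Trxh1, at 1.48-fold. Among all genes 18.8% fell and 12.4% rose, and 31.2% were called in either direction. For the 37 genes these shares were 32.4%, 5.41% and 37.8%. Without TRX1, 11 of 36 fell and 2 rose. Of the 37 genes, 9 fell by at least 2-fold and 1 rose by as much, where the shares over all genes were 9.86% and 6.91%. The median log2 fold change was -0.28 over the 37 genes and -0.08 over all genes. Both CO2 samples lay below both controls in 21 genes and above them in 9, against 39.8% and 27.7% of all genes. In the 36 genes without TRX1, 8 fell by at least 2-fold and 1 rose by as much, with a median log2 fold change of -0.25. Both CO2 samples were then below both controls in 20 genes and above them in 9. No test of the list as a whole was made, since its members were chosen with results of these data known.

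**Figure D1:**
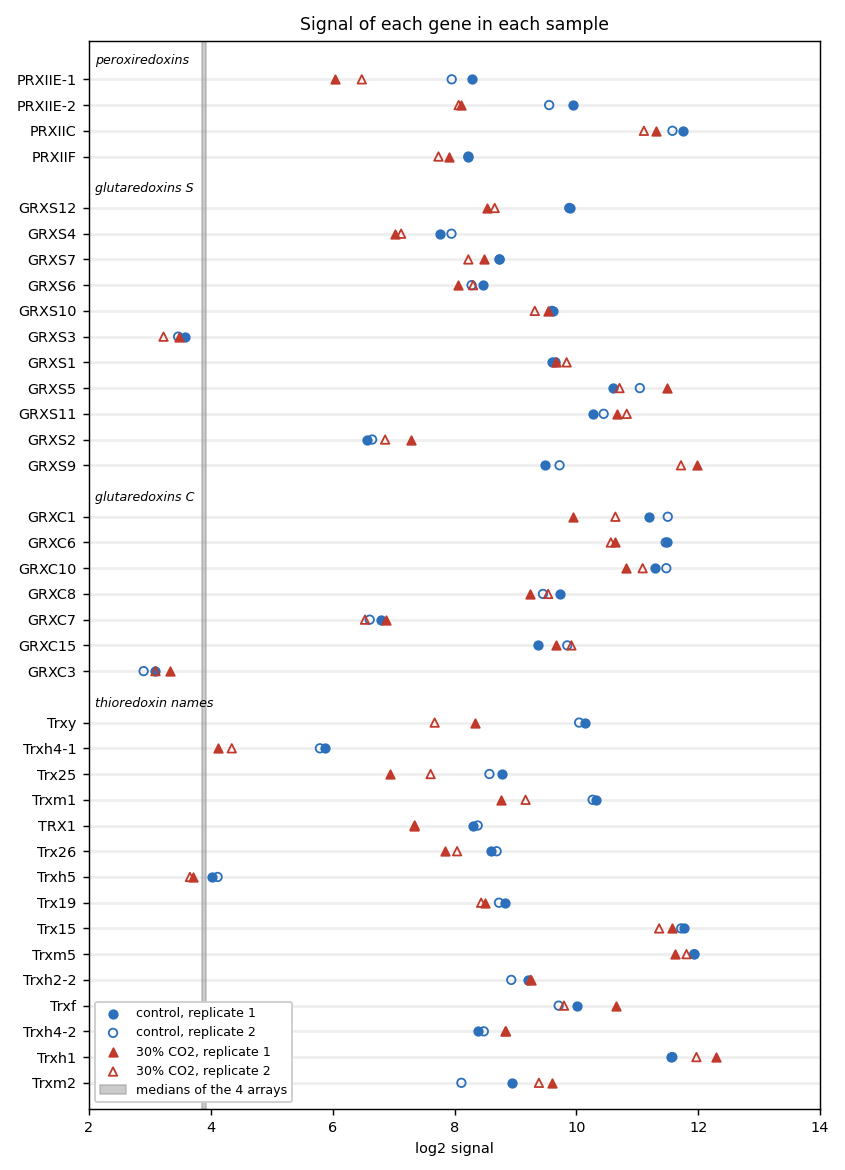
Log2 signal of each of the 37 genes (rows, by family) in each of the 4 samples; circles are controls, triangles are 30% CO2 samples, filled symbols are replicate 1 and open symbols replicate 2, and the grey band spans the array medians of 3.85 to 3.92. The triangles of GRXS9 lie far right of its circles, those of PRXIIE-1, PRXIIE-2 and Trxy lie far left, and GRXS3 and GRXC3 lie below the medians in every sample.

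Of the 4 peroxiredoxins, the 2 genes of the E type fell, and in all 4 both CO2 samples lay below both controls. Among all genes 18.8% fell, and 39.8% had both CO2 samples below both controls. In Arabidopsis, PRXIIE is the type II peroxiredoxin of the chloroplast. PRXIIE-1 (LOC4341570) stood at 6.04 and 6.48 in the CO2 samples and at 8.29 and 7.95 in the controls. The groups are far apart, and the CO2 mean of 6.26 ± 0.31 (SD, n = 2) against 8.12 ± 0.24 corresponds to a log2 fold change of -1.86 ± 0.21 (SE; limma adjusted p = 0.00566). PRXIIE-2 (LOC4328586) stood at 8.10 and 8.07 under CO2 and at 9.94 and 9.55 in controls. Its CO2 replicates were nearly the same, and it fell by 1.66 ± 0.17 on the log2 scale (limma adjusted p = 0.00467).

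The other 2 peroxiredoxins belong to other compartments in Arabidopsis, PRXIIC to the cytosol and PRXIIF to mitochondria. PRXIIC (LOC4325511) stood at 11.31 and 11.11 under CO2 and at 11.75 and 11.58 in controls, on a probe set open to cross-binding (one that may match more than a single transcript). Its groups did not overlap, but the log2 fold change of -0.45 (95% interval -0.83 to -0.08) did not pass over all genes (limma adjusted p = 0.0714). PRXIIF (LOC4324376) was similar, at 7.90 and 7.74 against 8.22 and 8.23, with a log2 fold change of -0.41 (limma adjusted p = 0.0697).

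Glutaredoxins named S included the largest change of all 37 genes. GRXS9 (LOC9269297) stood at 11.98 and 11.72 under CO2 and at 9.49 and 9.72 in controls. The CO2 samples were clearly above the controls and close to each other, with a log2 fold change of 2.24 ± 0.16 (limma adjusted p = 0.00271). It was the only glutaredoxin that rose. GRXS12 (LOC4351647) went the other way, from 9.89 and 9.88 in controls to 8.54 and 8.66 under CO2. Replicates of this gene were close in each group, and it fell by 1.29 ± 0.12 on the log2 scale (limma adjusted p = 0.00405). GRXS4 (LOC4327794) fell by 0.78 ± 0.13 on the log2 scale, from 7.77 and 7.95 to 7.03 and 7.12 (limma adjusted p = 0.0143).

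Of the 11 glutaredoxins named S, 2 fell and 1 rose, against 18.8% and 12.4% of all genes. The other 8 did not pass. GRXS5, with the highest mean signal among them, stood at 11.48 and 10.71 under CO2 and 10.60 and 11.04 in controls. The groups of GRXS5 overlapped, its CO2 replicates differed by 0.78, and the 95% interval of its log2 fold change ran from -0.53 to 1.08. GRXS2 had the largest estimate of the 8, at 0.47 (7.29 and 6.86 against 6.57 and 6.65; limma adjusted p = 0.115), on a cross-binding probe set. GRXS11 stood at 0.38 and GRXS7 at -0.38 in log2 fold change (limma adjusted p = 0.0993 and 0.109), with groups that did not overlap. GRXS1, GRXS3, GRXS6 and GRXS10 had estimates between -0.19 and 0.12. GRXS3 was below the median of every array, and the table holds no detection calls.

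Among glutaredoxins named C, 2 of 7 fell and none rose, against 18.8% and 12.4% of all genes. GRXC6 (LOC4336354), also named RASC8, stood at 10.63 and 10.56 under CO2 and at 11.49 and 11.47 in controls. The spread within groups was small, and it fell by 0.88 ± 0.12 on the log2 scale (limma adjusted p = 0.00803). GRXC1 (LOC4325734) stood at 9.94 and 10.64 under CO2 and at 11.19 and 11.50 in controls. The log2 fold change of -1.05 ± 0.27 passed narrowly (limma adjusted p = 0.0426), and without CO2 replicate 1 it was -0.70. It did not pass with replicate numbers paired crosswise as a block, or with adjustment over all probe sets (limma adjusted p = 0.0842 and 0.0808). In the fit on the mean of all probe sets of each gene, its limma adjusted p was 0.0539. Under the other alternatives that used all 4 samples the call was kept.

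GRXC10, with the highest mean signal of the 5 that did not pass, stood at 10.81 and 11.09 under CO2 and 11.30 and 11.48 in controls (log2 fold change -0.44, 95% interval -0.85 to -0.03, limma adjusted p = 0.0965). GRXC8 and GRXC15 had log2 fold changes of -0.21 and 0.18 with overlapping groups. The estimate for GRXC7 was 0.00, with a 95% interval from -0.44 to 0.44. GRXC3, also named ROXY2, shares its name with a glutaredoxin known in Arabidopsis for anther development, and it was below the median of every array at 2.90 to 3.33, on a cross-binding probe set.

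**Figure D2:**
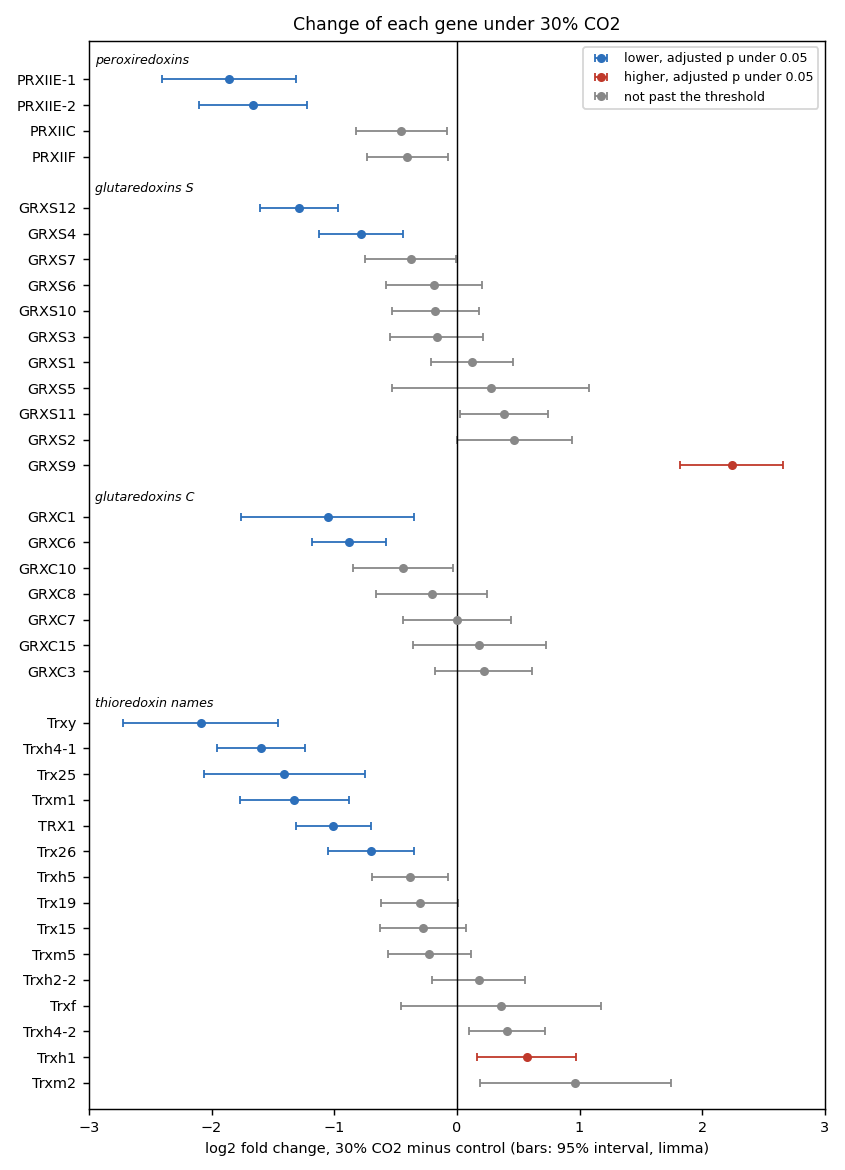
Log2 fold change (30% CO2 minus control) of each of the 37 genes with its 95% interval from limma, by family; blue marks the 12 genes that fell, red the 2 that rose and grey the 23 not past the threshold. GRXS9 at 2.24 stands alone on the right, and Trxy at -2.09 and PRXIIE-1 at -1.86 lie furthest left.

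Of the 5 thioredoxins measured under names of the chloroplast types f, m and y, Trxy and Trxm1 fell, and Trxm2, Trxm5 and Trxf did not pass. Among all genes 18.8% fell and 31.2% were called in either direction. The count goes by the type letter in the name and leaves out any chloroplast protein with another name. Trxy (LOC4324458), whose Arabidopsis counterparts supply electrons to chloroplast peroxidases, had the largest fall of the 37 genes. It stood at 8.34 and 7.67 under CO2 and at 10.15 and 10.04 in controls. Its CO2 samples were further apart than its controls, yet both were far lower, with a log2 fold change of -2.09 ± 0.24 (limma adjusted p = 0.00596). Trxm1 (LOC4330107) fell by 1.32 ± 0.17 on the log2 scale, from 10.32 and 10.27 to 8.77 and 9.17 (limma adjusted p = 0.00756). Both CO2 values of Trxm2 (LOC4336484), at 9.61 and 9.38, were above its controls of 8.95 and 8.11. The controls of Trxm2 differed by more than those of any other of the 37 genes, and its log2 fold change of 0.97 ± 0.30 did not pass (limma adjusted p = 0.0691). Trxm5, on a cross-binding probe set, stood at 11.61 and 11.81 under CO2 and 11.94 and 11.93 in controls (log2 fold change -0.23, limma adjusted p = 0.252).

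Trxf (LOC4324320), of the type that activates enzymes of carbon fixation in the light, stood at 10.65 and 9.80 under CO2 and at 10.02 and 9.71 in controls. Its groups overlapped and CO2 replicate 1 alone was high, so the 95% interval of its log2 fold change ran from -0.45 to 1.17.

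Of the 5 thioredoxins of the h type, found mainly in the cytosol, Trxh1 rose, Trxh4-1 fell and 3 did not pass. Among all genes 12.4% rose and 18.8% fell. Trxh1 (LOC4342593), also named RPP13-1 after the abundant phloem sap protein it encodes, stood at 12.30 and 11.97 under CO2 and 11.55 and 11.57 in controls. Both CO2 samples were higher, by 0.57 ± 0.16 on the log2 scale, and the limma adjusted p of 0.04996 lies at the threshold; the call was lost under 8 of the 10 alternatives that did not leave out a control, with adjusted p up to 0.128. Trxh4-1 (LOC4325189) fell by 1.60 ± 0.14 on the log2 scale, from 5.87 and 5.79 to 4.12 and 4.34 (limma adjusted p = 0.00343). Its CO2 signals are close to the array medians. Trxh4-2 (LOC4337927) stood at 8.83 and 8.84 under CO2 against 8.38 and 8.48 on a cross-binding probe set. Its estimate of 0.41 did not pass (limma adjusted p = 0.0591), and its 1 probe set of the other kind, with a mean signal of 3.22, gave -0.06. Trxh2-2 and Trxh5 had log2 fold changes of 0.18 and -0.38 (limma adjusted p = 0.407 and 0.069), and Trxh5 lay near the array medians at 3.66 to 4.11.

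Other proteins of the thioredoxin family have their own names. Trx25 (LOC4345435) is also named CiTrx, after a tomato thioredoxin that interacts with a resistance protein. It fell from 8.78 and 8.57 in controls to 6.93 and 7.61 under CO2 (log2 fold change -1.41 ± 0.25, limma adjusted p = 0.0168). The groups are well apart although CO2 replicate 1 was lower than replicate 2. Trx26 (LOC4346999), also named TDX, whose Arabidopsis namesake joins a thioredoxin domain to repeats that bind chaperones, fell by 0.70 ± 0.13 on the log2 scale, from 8.60 and 8.69 to 7.84 and 8.04 (limma adjusted p = 0.0196). Neither Trx15 (LOC4337091), also named CXXS1 for an active site with serine in place of a cysteine, nor Trx19 passed, with log2 fold changes of -0.28 and -0.30 and groups that did not overlap.

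TRX1 (LOC4346464), the SET-domain gene, stood at 7.33 and 7.35 under CO2 and at 8.31 and 8.38 in controls. It fell by 1.01 ± 0.12 on the log2 scale (limma adjusted p = 0.00596). Its other probe sets were dimmer and had log2 fold changes of -0.61 and 0.00, and the mean of its 3 probe sets gave -0.54 and did not pass (limma adjusted p = 0.0532).

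**Figure D3:**
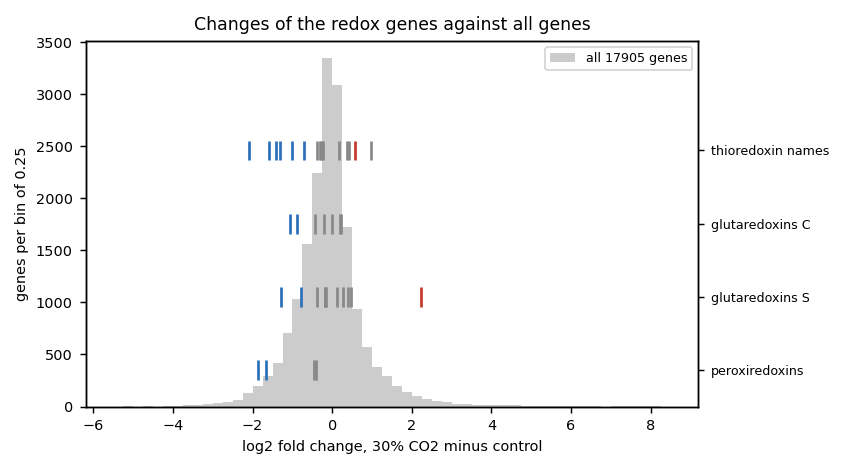
Histogram of log2 fold changes (30% CO2 minus control) of all 17905 genes in grey, in bins of 0.25, with a tick for each of the 37 genes on 4 rows by family, coloured blue for a fall, red for a rise and grey for genes not past the threshold. Most ticks lie within the main body of the distribution, and GRXS9 is the only tick on the right beyond 1.

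Probe sets of a gene did not always have the same direction. Of the 37 genes 9 have more than 1 probe set, and in 4 of these all probe sets pointed the same way. GRXS4 fell by 0.78 on the log2 scale on the probe set that stands for it and stood at -0.59 on its other probe set. The probe sets of Trxh1 gave 0.57 and 0.51, although the dimmer one had a mean signal of only 2.90. PRXIIC gave -0.45 and -0.48 on its bright probe sets and 0.35 on a dim one with a mean signal of 4.86. GRXS11 gave 0.38 and -0.08 on probe sets that were both bright. Of the 14 called genes, none rests on a cross-binding probe set.

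**Figure D4:**
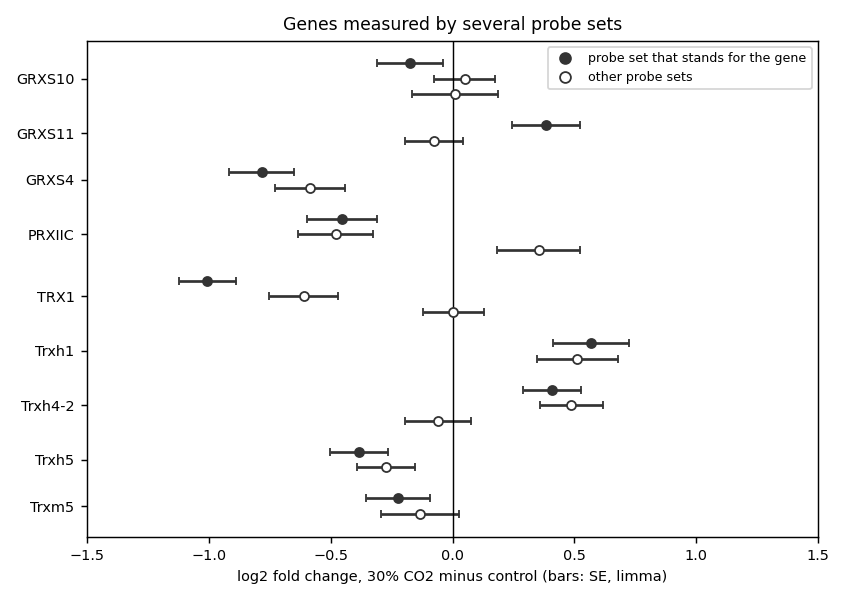
Log2 fold change (30% CO2 minus control) with its SE from limma for every probe set of the 9 genes measured by more than 1; filled points stand for the gene (highest mean signal) and open points are its other probe sets. Both points of GRXS4 lie left of 0 and both of Trxh1 right of it, while those of GRXS11 lie on either side.

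Other redox genes, such as those for reductases and for further enzymes that remove peroxide, were counted from name patterns, whatever their values. Of 35 such genes measured 9 fell, none rose and 26 did not pass. The share that fell was 25.7%, against 18.8% of all genes, and 12.4% of all genes rose. In either direction 25.7% of the 35 were called, which is fewer than the 31.2% of all genes. The median log2 fold change was -0.29, against -0.08 over all genes. Among 7 genes for reductases, NTRB (LOC4330505), for a thioredoxin reductase that uses NADPH, fell by 0.77 on the log2 scale, from 9.81 and 9.77 to 8.95 and 9.09 (limma adjusted p = 0.0123). A ferredoxin-NADP reductase gene, FNR LOC4342399, fell by 1.35 on the log2 scale on a cross-binding probe set (limma adjusted p = 0.00396). The other 5 reductase genes did not pass. The chloroplast peroxiredoxin gene bas1 (LOC4329578), outside the type II family, stood at 10.37 and 10.46 under CO2 and 11.56 and 11.39 in controls. It fell by 1.06 ± 0.13 on the log2 scale (limma adjusted p = 0.00676).

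The ascorbate-glutathione cycle removes peroxide through ascorbate and glutathione. Of 10 genes of this cycle and of glutathione synthesis 4 fell, where 18.8% of all genes fell. The ascorbate peroxidase genes APX5, APX6 and APX8 had log2 fold changes of -1.57, -0.91 and -0.70 and fell (limma adjusted p = 0.0121, 0.0209 and 0.0148), and the signal of APX5 under CO2, at 3.44 and 3.91, was near the array medians. GSH1-1, for the enzyme that begins glutathione synthesis, fell by 0.54 on a cross-binding probe set (limma adjusted p = 0.0303). Of 4 superoxide dismutase genes 1 fell, SODCC.2, by 0.75 on the log2 scale (limma adjusted p = 0.0148). Among 13 proteins with a thioredoxin fold under other names, cdsp32, for a chloroplast thioredoxin-like protein known from drought stress in potato, fell by 0.76 (limma adjusted p = 0.0279). None of the 11 protein disulfide isomerase genes (PDIL) passed, where 31.2% of all genes did. With the replicate number as a block, 5 of the 35 genes fell, where 2188 of all 17905 genes did. Without CO2 replicate 1 the related genes that fell kept their direction, but calls were lost, as they were over all genes.

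**Figure D5:**
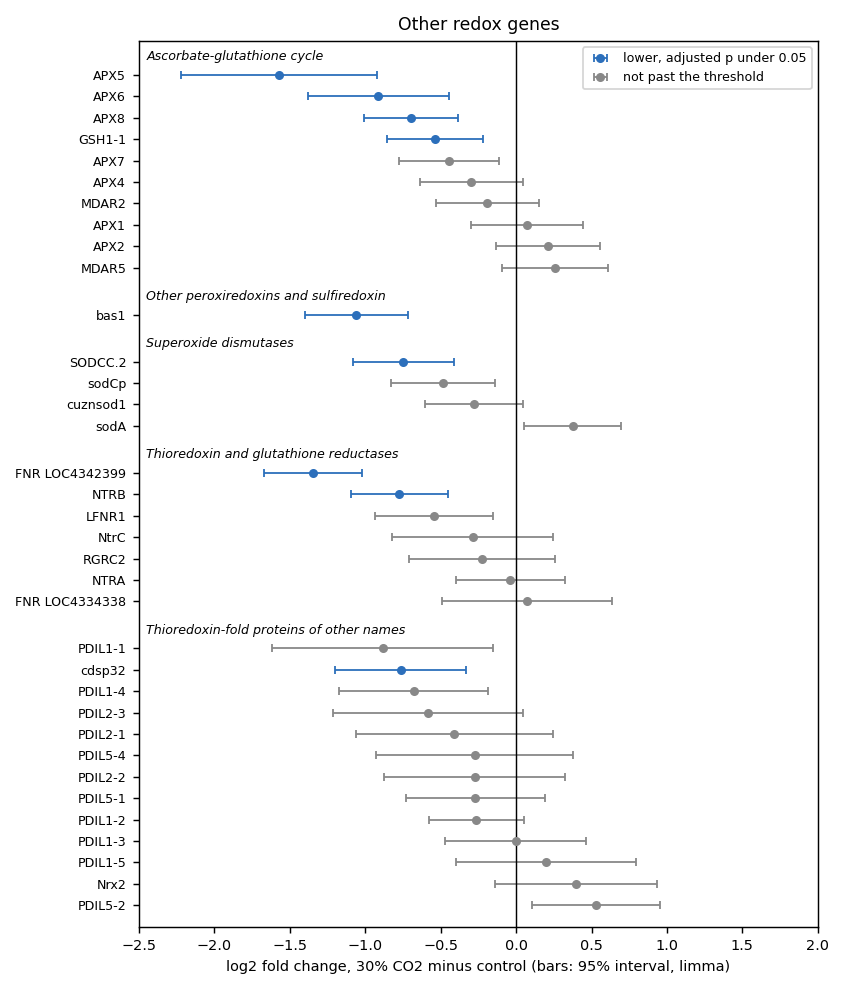
Log2 fold change (30% CO2 minus control) with its 95% interval from limma for the 35 related redox genes, by group; blue marks the 9 genes that fell and grey the 26 not past the threshold. APX5 at -1.57, FNR LOC4342399 at -1.35 and bas1 at -1.06 lie furthest left among those that fell, and no gene lies above 1.

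The calls rest on 2 samples a group. Leaving out any sample left a lone sample in its group, and fewer of all genes were then called, as given below. All 14 called genes kept their direction in each of these fits.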

How the data were processed

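The values deposited by the authors are log2 signals, with a column for each sample and a row for each probe set. RMA and limma are named in the submitters' processing notes, without versions or order. The labels name no batch, and no rescaling was applied.

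Of 57194 probe sets, 22436 had 1 gene in the array annotation, while 95 had several genes and 34663 were not listed there, and these are not named. All 17905 genes matched the rice gene table (assembly ASM3414082v1, used for names). Each gene is represented by its brightest probe set (mean of 4 samples). Probe sets ending in _x_at or _s_at may match more than a single transcript and are called cross-binding.

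All probe sets entered a limma fit (version 3.58.1, R 4.3.3) through lmFit and eBayes, with two-sided tests and neither block nor filter (2 residual and 2.85 prior degrees of freedom), and p-values were adjusted by Benjamini-Hochberg over the 17905 genes. Log2 fold changes are CO2 minus control. The fit was tested on simulated data. Precision is limited by having 4 arrays. Figures were drawn with matplotlib 3.10.9.

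The members and lists were chosen with earlier results of these data known. Given in full were all members past the threshold and, per family, the brightest and the most changed of the others. Alternatives were the replicate block, quantile normalization, a filter at the median level, an intensity trend, leaving out each sample, leaving out _x_at and _s_at sets, and the mean of probe sets. A crossed block, adjustment over all probe sets and leaving out TRX1 were added after seeing the data. Protein sequences were not used here.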

Additional observations from a re-analysis of the deposited data

How the results depend on the processing

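Of 168 repeats of the 14 called genes under single alternatives, 123 kept the call, 45 lost it and none changed direction. Of those lost, 28 came from leaving out a control. Besides Trxh1, only GRXC1, GRXS4, TRX1, Trx25 and Trx26 lost a call under the remaining alternatives. Whether replicate numbers pair the samples is not known, and the labels name no shared batch. The deviations of same-numbered samples correlated at -0.10. With 2 samples per group the crossed pairing must then give 0.10, so this value cannot decide the question. With the replicate block, 12 of the 37 genes were called (Trx25 at adjusted p = 0.0547 and Trxh1 at 0.0915 were lost), 5 of the 35 related genes, 3666 of all genes against 5587, and 1691 of all probe sets against 6583. With the crossed block 12 of the 37 genes, 11 related genes, 4725 genes and 3478 probe sets were called. Leaving out each sample in turn gave 0 to 14 called members, 0 to 8 related genes, 0 to 4569 genes and 0 to 2477 probe sets. The 0 for genes came without either control, where limma gave 5455 and 5141 genes an unadjusted p under 0.05, and the lone sample is assumed to vary like the other group. Probe sets also gave 0 without CO2 replicate 1, and the 3 counts of 0 had 9246 to 11506 at an unadjusted p under 0.05. Among genes not called, leaving out each sample in turn changed the sign of 4 log2 fold changes, which ranged from -0.057 to 0.42 for GRXC15, from -0.17 to 0.17 for GRXC7, from -0.11 to 0.66 for GRXS5 and from -0.066 to 0.79 for Trxf. GRXS10 and Trxh4-2 went to 0.050 and -0.059 without cross-binding probe sets. Signal over background is not given, which limits what can be said of dim genes such as Trxh4-1.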

Other observations

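The CO2 replicates were not equally far from the controls among the genes that fell. In 9 of the 12 the signal of CO2 replicate 1 was the lower one, and the same held for 68.1% of all genes that fell. The CO2 replicates lay more than 0.5 apart on the log2 scale in 5 of the 37 genes and in 20.0% of all genes, while the controls lay that far apart in 1 of the 37 (Trxm2) and in 10.5% of all genes. The 5 genes, chosen here after their values were seen, are GRXC1, GRXS5, Trx25, Trxf and Trxy. Their differences, replicate 1 minus replicate 2, were -0.70, 0.78, -0.67, 0.85 and 0.66, so replicate 1 was the higher sample in GRXS5, Trxf and Trxy.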
